A study of Homo sapiens with 4 samples.

Results

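The sites described here were adenosines with U at position -2, G at position -1, C at position +1 and A, C or U at position +2, which together read UGACH (H is A, C or U), in synthetic RNAs that had been chosen for a different adenosine. Each RNA was selected around 1 adenosine at position 51 of the 141 counted positions. All other UGACH adenosines were taken as bystanders from sequence alone, apart from the outermost 2 positions at each end. They numbered 1505, of 104831 adenosines under the same position rule and of 556809 positions in the whole table. There were 468 UGACA, 570 UGACC and 467 UGACU sites in 1219 of 3488 sequences, and 978 of those sequences held a single one. Where sequences overlapped, a genomic adenosine could occur more than once, so the 1505 sites stood for 1474 genomic adenosines.

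The study asked whether the sequence preference of the m6A writer is a property of the enzyme complex itself. RNAs of 183 nt, each with a 146-nt stretch of a human transcript and a 15-nt tag, were made by in vitro transcription and taken through miCLIP2 with 500 ng of input, either untreated (the unmethylated group) or after incubation with recombinant METTL3–METTL14 (the methylated group). In miCLIP2 an antibody against m6A, here from SySy, is crosslinked to RNA and reverse transcription stops at the crosslink, so that counts pile up at or near the modified base. Each group had 2 libraries, and the sequences came in an m6A class, selected for an adenosine that is methylated in the human embryonic kidney line HEK293T, and an unmodified class, selected for a DRACH adenosine that is not. No cells were present in the assay, all 4 libraries went through the same antibody step, and no library without antibody was used here. The labels state only that experiments were done in duplicate, so p-values reflect no more than the spread between these samples, and that spread may be technical.

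METTL3 is the catalytic subunit of the complex and METTL14 helps to hold the RNA substrate. The complex methylates adenosines in DRACH contexts (D is A, G or U and R is A or G), among which GGACU is the best known. UGACH also meets DRACH, with U in the place of the more familiar G or A at position -2.

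Windows of up to 29 nt are shown for the sites on which the results turn. They are written 5′ to 3′ as RNA, with the UGACH 5-mer in capitals. The first group holds UGACA sites, of which the SLC35B3 site fell, the chromosome 17 site was bright without being called, and the others rose.
SLC3A2: caaggaagauuuUGACAgucucuugcaau
WDR27: ggcuuggauuccUGACAggacgguucugc
ERCC3: gcugcaaaccagUGACAucaccgaguacc
ZNF276: cagccguggaucUGACAucucuguugacu
POLR1D: auagacacugugUGACAuuuguauugcac
EMC9: cugccaccuugaUGACAuccggcaggacu
SETD1A: gaccauccuguaUGACAuuuggaacucgg
ZSCAN29: gucugacagugaUGACAuggaucuag
SLC35B3: cacccuuccgggUGACAuaccggccuugg
chromosome 17 site: guucccugccccUGACAccgcggauggag

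The second group holds UGACC sites, shown because 3 of the 4 largest rises from at least 3 counts per unmethylated library shared the bases GUGACCU. Pooled over its 53 sites, GUGACCU itself was not called against all UGACH sites pooled (0.35 on the log2 scale, edgeR adjusted p = 0.0627, and 0.10, adjusted p = 0.573, without its brightest site), and 4 of its 17 tested sites were higher. The MIEF2 site was the brightest UGACC site that was not called.
POLD1: ggagcacaugggUGACCugcaacgggagc
SGTA: gguagaagacagUGACCuugcgcucccuc
KDM3B: cagcaccaacagUGACCugucagauuuga
PDP2: gccccuuacacgUGACCacaaugccugga
ZNF746: cguacauccuacUGACCuagaggcucacg
MIEF2: uccccucccaagUGACCcuccuccugccu

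The third group holds UGACU sites, with 4 that rose and CTDP1 as the brightest one that was not called.
VPS37C: cacugggcggugUGACUggucauggcacu
ARID1A: ugugccaggcaaUGACUuugagauguc
WDR33: cagcagaccagaUGACUuccacccugaca
LRRC47: gggguccucagaUGACUgggacagaggug
CTDP1: ugaccuggacuuUGACUuauccagcgaca

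Library totals were 10483825 and 12028474 counts in the unmethylated group and 13110615 and 13265092 in the methylated group. Single sites were thinly covered. The median site had 1 count in each unmethylated library and 2 in each methylated library, and between 507 and 722 sites had no count in a library. Over the 4 libraries together 364 sites had no count at all, 801 had 1 to 39 counts and 340 had at least 40. Counts were uneven, since the 10 brightest sites held 19.1% of the counts of all UGACH bystanders and the 100 brightest held 64.8%.

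Summed over all 1505 sites, with no filter, the crosslink signal was higher after methylation. Of every 1000 counts, UGACH bystanders took 1.43 (95% Wilson interval 1.41 to 1.45) and 1.37 (1.35 to 1.39) in the unmethylated libraries. They took 2.12 (2.09 to 2.14) and 2.08 (2.05 to 2.10) in the methylated libraries. Both methylated values lay above both unmethylated ones, and these intervals cover counting error only. Scaled to library totals as CPM, the sum went from 1401 ± 39.9 to 2099 ± 28.3 (SD, n = 2 each), a ratio of 1.498. The same ratio over all adenosines under the position rule was 1.04. Taken as a share of the adenosine counts of the same sequences, the UGACH ratio was 1.34. The sum has no p of its own, and the tests over pooled 5-mers follow after the position profile.

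The higher signal was at the adenosine itself and not over the surrounding bases. Over the 1465 sites with 5 counted bases on both sides, the adenosine itself held on average 0.952 ± 0.0279 CPM per site without methylation and 1.43 ± 0.0191 CPM with it (SD, n = 2 each). The ratio there was 1.498. At the 5 positions upstream the ratio lay between 0.863 and 1.02, and at the 5 positions downstream between 0.942 and 1.10. The bases 3 nt upstream carried more signal than the adenosine, 3.93 ± 0.304 CPM per site before and 3.40 ± 0.225 CPM after methylation (SD, n = 2 each). These profile values were not tested.

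With counts pooled by 5-mer, each of the 3 UGACH 5-mers rose in the fit across all 1024 5-mers, of which 6.35% were called higher and 4.3% lower. UGACA rose from 386 and 367 CPM in the unmethylated libraries to 639 and 600 CPM in the methylated libraries. Its log2 fold change was 0.75 ± 0.08 (SE), with a Benjamini-Hochberg adjusted p of 1.087e-04 in the quasi-likelihood test of edgeR. UGACU rose from 479 and 466 CPM to 678 and 698 CPM, a log2 fold change of 0.57 ± 0.07 (edgeR adjusted p = 3.968e-04). UGACC rose from 565 and 540 CPM to 803 and 780 CPM, a log2 fold change of 0.54 ± 0.07 (edgeR adjusted p = 5.466e-04). In each 5-mer both methylated libraries lay above both unmethylated ones. By log2 fold change UGACA was at rank 19 of the 1024 5-mers, and the ranks of UGACU and then UGACC were 29 and 32. The single brightest site held 6.47% of the counts of UGACA, 8.38% for UGACU and 5.50% for UGACC.

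For the base at position +2, the ratio of each 5-mer was set against that of all UGACH bystanders pooled, and none of the 3 was called. UGACA lay 0.14 ± 0.09 (SE, log2) above the pool, with an edgeR adjusted p of 0.156. UGACC lay at -0.06 ± 0.09 (adjusted p = 0.480) and UGACU at -0.04 ± 0.09 (adjusted p = 0.665), both by edgeR. Each of the 3 is part of the pool it was set against, which draws these differences towards 0. They were therefore also set against each other, a comparison added after seeing the data, in which 1.76% of 5-mers lay above UGACC and 94.2% below it, and 1.66% above UGACU and 95% below it. UGACA lay 0.20 ± 0.10 (SE, log2) above UGACC (edgeR adjusted p = 0.0518) and 0.18 ± 0.08 above UGACU (edgeR adjusted p = 0.0523). Neither was called at the threshold of 0.05. The adjustment ran over all 5-mers, most of them called, so it barely changed the unadjusted edgeR p of 0.0498 and 0.0506. It did not adjust for the 3 pairs compared. The error of the reference 5-mer was not included either, and both limits also hold for the alternatives below. UGACU lay 0.02 ± 0.10 above UGACC (edgeR adjusted p = 0.807). The UGACA difference was called against UGACC with replicate numbers as a block (edgeR adjusted p = 0.0477) and against UGACU without methylated replicate 2 (0.24, edgeR adjusted p = 0.0351). A p that misses the threshold does not show that the contexts respond alike.

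Most other DRACH contexts lay above UGACH in the same test. Of all 1024 5-mers, 1.37% lay above pooled UGACH and 95.8% below it. All 18 DRACH 5-mers rose in the plain fit, and of the 15 other than UGACH, 10 lay above pooled UGACH, 5 were not called and 0 lay below. With G at position -2 the excess was 1.42 ± 0.10 for GGACA, 1.14 ± 0.10 for GGACC and 1.19 ± 0.10 for GGACU (log2, SE), all called by edgeR. With A at position -2, AGACA lay 0.52 ± 0.09 above (edgeR adjusted p = 4.63e-05) and AGACU 0.35 ± 0.11 above (edgeR adjusted p = 0.00568), while AGACC at 0.12 ± 0.10 was not called (edgeR adjusted p = 0.251). The AGACU call was lost without unmethylated replicate 1 (0.19, edgeR adjusted p = 0.152), and the excess was 0.71 without its brightest site (edgeR adjusted p = 4.12e-12). With C at position -2, which is outside DRACH, the 5-mers lay below the pool, with CGACA at -0.38 ± 0.11, CGACC at -0.36 ± 0.10 and CGACU at -0.37 ± 0.11 (edgeR adjusted p = 0.0022, 0.0017 and 0.0028). The CGACA call was lost without unmethylated replicate 1 (-0.22, edgeR adjusted p = 0.0868) and the CGACU call without unmethylated replicate 2 (-0.22, edgeR adjusted p = 0.0868). UGACG, with G at position +2 and also outside DRACH, lay 0.17 ± 0.10 above pooled UGACH and was not called (edgeR adjusted p = 0.1185). It was called without unmethylated replicate 1 (0.27, edgeR adjusted p = 0.0453) and without its brightest site (0.22, edgeR adjusted p = 0.0464). The 5-mers named so far have G at position -1. Among those with A at that position, GAACA lay 1.22 ± 0.10 above pooled UGACH and was called by edgeR. GAACC at 0.75 ± 0.09 and GAACU at 0.55 ± 0.09 were also called. UAACA lay 0.66 ± 0.12 above (edgeR adjusted p = 5.79e-05) and UAACC 0.42 ± 0.12 above (edgeR adjusted p = 0.00346). UAACU at 0.03 ± 0.12, AAACA at -0.02 ± 0.10, AAACC at 0.08 ± 0.10 and AAACU at -0.01 ± 0.11 were not called.

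Summed over bystander sites, GGACH went from 2728 to 9778 CPM, a ratio of 3.58, AGACH from 2439 to 4494 CPM, a ratio of 1.84, and CGACH from 911 to 1053 CPM, a ratio of 1.16. The UGACH ratio of 1.498 lay between those of AGACH and CGACH. UGACH adenosines at position 51, for which 531 of the RNAs had been selected, went from 754 ± 5.72 to 1072 ± 105.5 CPM (SD, n = 2 each), a ratio of 1.42. The difference between selected and bystander UGACH was not tested.

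At single sites, 389 of the 1505 UGACH bystanders reached 10 counts in at least 2 libraries and were tested together with all other sites of the table. By edgeR 64 of them were higher after methylation (16.5%) and 1 was lower, against 3.7% higher and 2.01% lower over all 142938 tested sites. Among bystander adenosines of any context the shares were 6.22% and 2.33%. The 64 sites lay in 62 sequences and, where a symbol could be given, in 55 genes. The filter admits a site that is high in 1 group alone, so the tested sites are not a sample of all UGACH bystanders. Of the 389, 89 had under 10 counts in both unmethylated libraries, and 25 of these were among the 64. With a filter on the sum over the 4 libraries instead, set after seeing the data, 62 of 340 sites were higher and 1 was lower, against a background of 4.23% higher. The count of 64 became 39 with DESeq2, 25 with a filter of 1 count, 21 without methylated replicate 1 and 19 without methylated replicate 2, and in the last cases only 39 of the 64 were tested.

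Tested UGACH sites leaned upwards, with a long upper tail. Over all tested sites the median log2 fold change was -0.01, with quartiles of -0.41 and 0.44. For tested UGACH sites it was 0.67, with quartiles of 0.10 and 1.40. Values ran from -2.16 to 6.48, and 307 of 389 were above 0, 141 above 1 and 7 below -1. At an unadjusted edgeR p under 0.05, 146 sites were higher and 10 lower. The shares of all tested sites past these cuts were not computed, so these counts are a description. In 228 of the 389 both methylated libraries lay above both unmethylated ones in CPM, which held for 26% of all tested sites. It also held for every one of the 64 called higher, but a call with 2 libraries per group makes this nearly certain and it adds no support. When each site was set against the total of its own sequence, 50 UGACH sites were called higher, 43 of them among the 64, against a background of 1.8%.

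By 5-mer, 31 UGACA sites were higher, 23.7% of those tested, and 1 was lower, with a median log2 fold change of 0.82. Of 148 tested UGACC sites 16 were higher (10.8%), with a median of 0.64. Of 110 tested UGACU sites 17 were higher (15.5%), with a median of 0.58. The summed CPM ratios were 1.65, 1.43 and 1.46 in the same order. This order of shares is a description.

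A single UGACA site was among both the largest and the brightest rises. It was in SLC3A2, which encodes the heavy chain of a family of amino acid transporters. Its sequence was selected at chromosome 11, position 62881988 on the plus strand, and the site lay 49 nt downstream of the selected adenosine. It held 44 and 36 counts before methylation and 391 and 412 after it. These are 3.59 ± 0.851 and 30.4 ± 0.874 CPM (SD, n = 2 each). The log2 fold change was 3.06 ± 0.31 (SE, edgeR adjusted p = 5.07e-07), and all 3 oligonucleotides of the sequence had more signal after methylation. The total of the sequence went from a mean of 3277 to 5185 counts, and set against it the log2 change was 2.67.

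Other UGACA sites rose from a handful of counts. The WDR27 site (chromosome 6, selected position 169667767, minus strand) lay 5 nt upstream of the selected adenosine, which is in a GGACG motif. It went from 5 and 4 counts to 62 and 100, a log2 fold change of 3.87 ± 0.49 (edgeR adjusted p = 1.16e-05). All 3 of its oligonucleotides were tested and called higher, with log2 fold changes from 3.40 to 4.27. Whether signal of the neighbouring GGACG adenosine contributed to it was not tested. The ERCC3 site, in the gene of a DNA helicase of the transcription factor TFIIH (chromosome 2, selected position 127292726, minus strand, 49 nt downstream), went from 4 and 6 counts to 62 and 57. Its log2 fold change was 3.29 ± 0.49 (edgeR adjusted p = 9.50e-05). The ZNF276 site (chromosome 16, selected position 89723249, plus strand, 12 nt upstream), in a zinc finger gene, went from 5 and 4 counts to 51 and 36, a log2 fold change of 2.99 ± 0.54 (edgeR adjusted p = 8.58e-04).

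Only 1 called site had no count in either unmethylated library. It was in POLR1D, the gene of a subunit shared by RNA polymerases I and III (chromosome 13, selected position 27622959, plus strand, 10 nt downstream). It had 11 and 13 counts in the methylated libraries, or 0.910 ± 0.0997 CPM (SD, n = 2). Against a floor of 3 counts per unmethylated library it was at least 3.40-fold higher (edgeR adjusted p = 0.00850). The call was lost when sites with at least 1 count in 2 libraries were tested (edgeR adjusted p = 0.0967).

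Bright UGACA sites ranged from a clear rise to no call. A site on chromosome 19 (selected position 3573786, minus strand, 44 nt downstream), in no gene or in several, had 215 and 241 counts before and 622 and 526 after methylation. Its log2 fold change was 1.08 ± 0.27 (edgeR adjusted p = 0.0161), and it was lost without methylated replicate 1 (edgeR adjusted p = 0.220) and without methylated replicate 2 (edgeR adjusted p = 0.0831). The brightest UGACA site that was not called was on chromosome 17 (selected position 45169061, plus strand, 23 nt downstream). It had 311 and 359 counts before and 447 and 255 after methylation, so that the groups overlapped, with a log2 fold change of -0.18 ± 0.29 (edgeR adjusted p = 0.818).

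The 1 site called lower was a UGACA site in SLC35B3, which encodes a Golgi transporter of the sulfate donor PAPS (chromosome 6, selected position 8435425, minus strand, 67 nt downstream). It went from 63 and 75 counts to 11 and 26, a log2 fold change of -2.16 ± 0.40 (edgeR adjusted p = 0.00137). The whole sequence moved with it, from a mean of 5584 counts before to 2458 after methylation. Set against that total, the site's log2 change was -0.71 (edgeR adjusted p = 0.481). The call was also lost without methylated replicate 1 (-1.66, edgeR adjusted p = 0.0659).

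Among UGACC sites the largest rise was in POLD1, the catalytic subunit of DNA polymerase delta (chromosome 19, selected position 50402059, plus strand, 36 nt upstream). It went from 5 and 3 counts to 68 and 63, a log2 fold change of 3.73 ± 0.50 (edgeR adjusted p = 2.94e-05). The site in SGTA, the gene of a co-chaperone (chromosome 19, selected position 2767666, minus strand, 31 nt downstream), went from 38 and 23 counts to 349 and 149. Its log2 fold change was 2.77 ± 0.40 (edgeR adjusted p = 7.34e-05). The 2 methylated libraries of SGTA differed by more than those of POLD1, at 18.9 ± 10.9 CPM against 4.97 ± 0.309 CPM (SD, n = 2 each), and its oligonucleotides ran from -0.18 to 4.31 on the log2 scale. The KDM3B site, in a histone demethylase gene (chromosome 5, selected position 138392064, plus strand, 18 nt downstream), went from 10 and 7 counts to 61 and 59, a log2 fold change of 2.54 ± 0.45 (edgeR adjusted p = 6.81e-04). The PDP2 site, in the gene of a pyruvate dehydrogenase phosphatase (chromosome 16, selected position 66885171, plus strand, 36 nt downstream), went from 8 and 17 counts to 84 and 62, a log2 fold change of 2.29 ± 0.43 (edgeR adjusted p = 0.00127). The PDP2 and SGTA adenosines had predicted pairing probabilities of 0.999 and 0.947, and those of POLD1 and KDM3B 0.435 and 0.183.

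The brightest UGACC sites called higher were in ZNF746 and TRIM52. The site in ZNF746, a zinc finger repressor gene (chromosome 7, selected position 149475394, minus strand, 17 nt upstream), went from 84 and 99 counts to 388 and 476. That is 8.12 ± 0.154 to 32.7 ± 4.45 CPM (SD, n = 2 each), a log2 fold change of 1.98 ± 0.29 (edgeR adjusted p = 6.99e-05). The TRIM52 site (chromosome 5, selected position 181260728, minus strand, 47 nt downstream) went from 13.2 ± 2.80 to 36.7 ± 4.59 CPM (SD, n = 2 each) with no overlap between the groups, a log2 fold change of 1.44 ± 0.29 (edgeR adjusted p = 0.00243). Its sequence total was higher too, at a mean of 25341 counts against 11169 before, and against that total the site was not called (0.49, edgeR adjusted p = 0.414). In 1 of its 3 oligonucleotides the signal was higher after methylation, and its oligonucleotides ran from -0.53 to 2.41 on the log2 scale. The brightest UGACC site without a call was in MIEF2, the gene of a mitochondrial fission factor (chromosome 17, selected position 18265618, plus strand, 67 nt downstream). It held 365 and 468 counts before and 459 and 538 after, or 36.9 ± 2.89 and 37.8 ± 3.92 CPM (SD, n = 2 each), and its log2 fold change was 0.00 ± 0.26 (edgeR adjusted p = 0.998).

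Among sites with at least 3 counts in each unmethylated library, the largest log2 fold change was 2.30 for UGACU, against 3.87 for UGACA and 3.73 for UGACC. The site in VPS37C, the gene of an ESCRT-I subunit (chromosome 11, selected position 61131709, minus strand, 51 nt downstream), went from 29 and 27 counts to 161 and 170. These are 2.51 ± 0.369 and 12.5 ± 0.379 CPM (SD, n = 2 each), a log2 fold change of 2.30 ± 0.33 (edgeR adjusted p = 6.61e-05). All 3 of its oligonucleotides were called higher, at 2.08 to 3.31. The LRRC47 site (chromosome 1, selected position 3786892, minus strand, 71 nt downstream) went from 67 and 56 counts to 261 and 313, a log2 fold change of 1.95 ± 0.30 (edgeR adjusted p = 1.54e-04), and again all 3 oligonucleotides were called higher.

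A pair of further UGACU sites shared the context AUGACUU and had similar values. Pooled over its 41 sites, AUGACUU was not called against pooled UGACH (0.32, log2, edgeR adjusted p = 0.121). Without its brightest site it lay 0.75 above (edgeR adjusted p = 0.00162), and 3 of its 10 tested sites were higher. The site in ARID1A, a subunit of SWI/SNF chromatin remodellers (chromosome 1, selected position 26779813, plus strand, 78 nt downstream), went from 15 and 15 counts to 69 and 84, a log2 fold change of 2.08 ± 0.39 (edgeR adjusted p = 0.00135). The site in WDR33, a component of the mRNA cleavage and polyadenylation machinery (chromosome 2, selected position 127713907, minus strand, 69 nt downstream), went from 14 and 14 counts to 65 and 74, a log2 fold change of 2.04 ± 0.40 (edgeR adjusted p = 0.00199). The WDR33 call was lost without methylated replicate 2 (edgeR adjusted p = 0.0531).

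The GTPBP1 and CTDP1 sites depended on the setting. The UGACU site in GTPBP1, a GTP-binding protein (chromosome 22, selected position 38716072, plus strand, 68 nt downstream), went from 9 and 10 counts to 54 and 44, a log2 fold change of 2.10 ± 0.45 (edgeR adjusted p = 0.00475). The mean sequence total went from 1106 to 2641 counts, and against that total the log2 change was 1.09 (edgeR adjusted p = 0.260). The call was also lost without methylated replicate 1 (edgeR adjusted p = 0.0752). The site in CTDP1, a phosphatase of the RNA polymerase II tail (chromosome 18, selected position 79714774, plus strand, 44 nt downstream), was the brightest UGACU site without a call. It held 315 and 524 counts before and 766 and 807 after, with a log2 fold change of 0.66 ± 0.27 (edgeR adjusted p = 0.177). Without unmethylated replicate 2, the higher of the unmethylated pair, it was called (0.99, edgeR adjusted p = 0.0371).

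All 64 sites called higher were in sequences with 3 oligonucleotides, which differ only in the tag and come from the same libraries. In 46 of the 64 every oligonucleotide had more signal in the methylated libraries. Of the named rises, this held for 2 of the 3 oligonucleotides at SGTA, KDM3B, PDP2, GTPBP1 and WDR33. The oligonucleotides are parts of the sum on which a site was called, so their agreement in direction is no separate support. The share among all tested sites was not computed. For 13 sites all 3 oligonucleotides had enough counts to be tested, and 11 of these had 3 log2 fold changes above 0, with all 3 called in 3 sites.

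The bases at positions -3 and +3 divide UGACH into 48 contexts, all of which had enough pooled counts for a test. Of the 48, 22 were called higher and 0 lower by edgeR, against 4.07% higher and 2.78% lower over all 15544 7-mers, and 44 had a log2 fold change above 0. Set against pooled UGACH, 6 contexts lay above and 5 below, and over all 7-mers 1.64% lay above and 58.9% below. The adjustment ran over all these 7-mers, and since most were called it was mild. For CUGACUG the unadjusted edgeR p was 0.0276 and the adjusted p 0.0463, and for GUGACUU 0.0166 and 0.0305. An adjustment over the 48 contexts alone was not run, so the weaker calls are tentative. Of the 11, 4 of those above and 3 of those below were still called with the brightest site of each context left out.

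AUGACAU stood highest above the pool. Its 22 sites went from 8.58 and 6.40 CPM to 27.5 and 25.6 CPM, a ratio of 3.54, and lay 1.25 ± 0.21 (SE, log2) above pooled UGACH (edgeR adjusted p = 3.16e-04). A single site in EMC9, a subunit of the endoplasmic reticulum membrane complex, held 67.2% of its counts, and without that site the excess was 1.24 (edgeR adjusted p = 0.00104). The 3 tested sites of the context were all called higher and carried most of its counts, and they are named here after their values were seen. The SETD1A and ZSCAN29 sites passed the filter through the methylated libraries alone, so 3 of 3 is no support for the context. The other 19 sites together held 21 and 20 counts before and 34 and 48 after methylation, a ratio of 1.69. EMC9 (chromosome 14, selected position 24139116, minus strand) went from 60 and 52 counts to 251 and 220, a log2 fold change of 1.81 ± 0.31. SETD1A, a histone methyltransferase gene (chromosome 16, selected position 30980052, plus strand), went from 8 and 5 counts to 48 and 33, a log2 fold change of 2.36 ± 0.51. ZSCAN29 (chromosome 15, selected position 43366257, minus strand) had 1 and 0 counts before and 28 and 38 after methylation. Set against its sequence total, the EMC9 site was not called (0.95, edgeR adjusted p = 0.0574).

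UUGACAG, the context of the SLC3A2 site and of the chromosome 19 site, was the other context above the pool whose call was kept without its brightest site and without each library in turn. Its 28 sites went from 45.7 and 39.9 CPM to 115.6 and 103.2 CPM, a ratio of 2.56, and lay 0.77 ± 0.15 above pooled UGACH (edgeR adjusted p = 8.90e-04). Without the chromosome 19 site, which held 41.7% of its counts, the excess was 0.97. Without the SLC3A2 site, left out after its values were seen and with no test, the ratio was 2.01. Of its 14 tested sites 4 were called higher, and the log2 fold changes of the 14 ran from -0.40 to 3.06.

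The other 4 contexts above pooled UGACH each lost the call in at least 1 alternative. AUGACCC lay 0.75 above (edgeR adjusted p = 0.00403) and 0.27 above without its brightest site, which is in CEP170B and held 44.03% of its counts (edgeR adjusted p = 0.296). AUGACAA lay 0.58 above (edgeR adjusted p = 0.0212) and at -0.08 without its brightest site, in URB1 (edgeR adjusted p = 0.786), and was also lost without unmethylated replicate 1 (edgeR adjusted p = 0.103) and without methylated replicate 2 (edgeR adjusted p = 0.111). CUGACAA lay 0.67 above (edgeR adjusted p = 0.0164) and was lost without unmethylated replicate 2 (edgeR adjusted p = 0.179) and without methylated replicate 1 (edgeR adjusted p = 0.0539). GUGACUU lay 0.58 above (edgeR adjusted p = 0.0305) and was lost without unmethylated replicate 1 (edgeR adjusted p = 0.246) and without methylated replicate 2 (edgeR adjusted p = 0.147).

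Among contexts below the pool, AUGACCG was the one whose call was kept without its brightest site and without each library in turn. Its 15 sites held 28.04 and 25.1 CPM before and 27.4 and 22.99 CPM after methylation, and lay at -0.66 ± 0.18 against the pool (edgeR adjusted p = 0.00561) and at -1.001 without the brightest site. Its few tested sites carried most of its counts. Of the 3 tested, 1 was called higher, and their median log2 fold change was 0.26. That median was the value of the brightest site, in CEP170B, which was not called (edgeR adjusted p = 0.699). The other 12 sites together held 35 and 23 counts before and 51 and 36 after methylation, a ratio of 1.26. The lower pooled CPM therefore came from the 1 remaining tested site. Leaving out the brightest site kept that site in, so the kept call does not show a deficit across the context. GUGACCG had the largest deficit, at -0.74 ± 0.16 (edgeR adjusted p = 0.00147), with 46.6 ± 2.13 CPM before and 41.7 ± 2.87 CPM after (SD, n = 2 each). Without its brightest site, in CEP72, it was at -0.34 and no longer called (edgeR adjusted p = 0.119). AUGACCU lay at -0.66 (edgeR adjusted p = 0.0110) and moved to 0.14 without a single site in ZNF646 (edgeR adjusted p = 0.642). It was also lost without unmethylated replicate 1 (edgeR adjusted p = 0.114) and without methylated replicate 1 (edgeR adjusted p = 0.0620).

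The remaining contexts below the pool were CUGACAC at -0.45 (edgeR adjusted p = 0.0140) and CUGACUG at -0.35 (edgeR adjusted p = 0.0463). CUGACAC was lost without methylated replicate 1 (edgeR adjusted p = 0.0632) and without methylated replicate 2 (edgeR adjusted p = 0.0841). CUGACUG was lost without unmethylated replicate 2 (edgeR adjusted p = 0.174), without methylated replicate 1 (edgeR adjusted p = 0.148), without methylated replicate 2 (edgeR adjusted p = 0.163) and with replicate numbers as a block (edgeR adjusted p = 0.0721).

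Split by 1 flank at a time, the ratios of summed CPM ran from 1.33 to 1.77, and none of these differences was tested. By the base at position -3 the ratio was 1.65 for A, 1.39 for C, 1.49 for G and 1.66 for U. Sites called higher were 13 of 63 with A, 16 with C (12.03% of those tested), 28 of 140 with G and 7 of 52 with U. By the base at position +3 the ratio was 1.52 for A, 1.33 for C, 1.49 for G and 1.77 for U. Sites called higher there were 11 of 81, 9 of 87, 22 of 130 and 22 of 90, and the 1 site called lower also had U at position +3. C was thus lowest in ratio at both flanks, and 14 sites at sequence ends had no 7-mer.

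The ratio was above 1 in every stretch of the RNA. It was 1.45 at positions 3 to 26, 1.56 at 27 to 50, 1.47 at 52 to 81, 1.62 at 82 to 110 and 1.37 beyond that. The sites called higher in these bins were 3 of 25, 8 of 46, 13 of 94, 20 (15.6%) and 20 of 96 tested. Within 20 nt of the selected adenosine the ratio was 1.61, with 18 of 97 tested sites higher, and farther away it was 1.47, with 46 of 292 higher. The 174 sites with another DRACN adenosine within 5 nt had a ratio of 1.63 and the 1331 without one had 1.48, so that the higher signal was also present where no DRACN neighbour was close.

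The makeup of the sequence and the predicted fold went with small differences, none of which was tested. In sequences of the m6A class the ratio was 1.45, with 41 of 261 tested sites higher, and in the unmodified class it was 1.61, with 23 higher (17.97% of those tested). Sequences that also held a GGACH motif had a ratio of 1.54, with 45 of 256 sites higher, and those without one had 1.41, with 19 higher (14.3% of those tested). Adenosines predicted to be paired, with a pairing probability of at least 0.5, had a ratio of 1.53 and 24 sites higher (17.5% of those tested). Unpaired ones had a ratio of 1.49 and 40 of 252 higher.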

How the data were processed

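miCLIP2 data on synthetic RNA were analysed, with 2 libraries per group and groups taken from the labels' treatment. The table deposited by the authors holds raw counts, not normalized, for each position of each oligonucleotide in each library. FastQC 0.11.8, STAR 2.7.3a and bedtools 2.27.1 are named in the submitters' processing notes, but their roles, any duplicate removal and the build were not given in the sources used here. Coordinates are the chromosome, strand and position of the selected adenosine as the table gives them. Symbols came from overlap with RefSeq genes of GRCh38.p14, irrespective of strand, for the 1320 sites whose locus lies in exactly 1 gene. Of all loci 98.7% lay in a gene, against 66.0% to 72.2% when shifted. Exon and UTR annotation was not used here.

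Counts of the oligonucleotides of a sequence were summed. Sequence totals of replicates differed beyond sampling noise (chi-square divided by its degrees of freedom, 44.1 and 38.4), so replicates were kept apart. Sites that reached 10 counts in 2 or more of 4 libraries, and counts pooled by 5-mer or 7-mer over bystander positions of the m6A and unmodified classes, were fitted over the whole table with edgeR 4.0.16 (quasi-likelihood F test, TMM scaling, group as the only term, two-sided) in R 4.3.3. Benjamini-Hochberg adjustment ran over all features tested, at a threshold of 0.05. Contexts were set against pooled UGACH by using its counts as library size, so the error of the pool is not included. Standard errors were the log2 fold change over the square root of F. Floors, at 3 counts per library, and Wilson intervals cover counting error only. Pairing was predicted with ViennaRNA 2.7.2. Scripts were tested on simulated data. Alternatives were DESeq2 1.42.0, other scalings and filters, sequence totals, unsummed oligonucleotides, a replicate block, and leaving out brightest sites or each library. Those for 5-mers against pooled UGACH or each other, the filter on summed counts, each genomic adenosine once in the counts of calls, and central positions alone were added after seeing the data.

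Sites were named per 5-mer: the 4 called rises with the largest log2 fold change, at least 3 counts in each unmethylated library and non-overlapping groups, the 2 brightest called rises and the brightest uncalled site. Added to these were sites called lower, rises without an unmethylated count (at most 3) and 7-mers called against pooled UGACH. The 42 sites on chromosome 8 were skipped. The sites, lists and rules were chosen with earlier results of these data known.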

Additional observations from a re-analysis of the deposited data

Results flagged for a closer look

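UGACH bystanders in the permutated sequences, in which the selected motif had been exchanged, were outside the comparisons above and also had more signal after methylation than the unmethylated control libraries. Their 235 sites summed to 108.4 ± 2.67 CPM before and 234.3 ± 1.12 CPM after methylation (SD, n = 2 each), a ratio of 2.16. Of 40 tested sites 9 were higher and 0 lower by edgeR, against 3.7% higher and 2.01% lower over all sites. These sites are not independent of the others, since 218 of them were copies of 52 sites described above. The ratio of 2.16 also includes the bright copies of 1 site in ESS2 and was not computed without them.

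A UGACU site in ESS2, which encodes a nuclear protein linked to splicing, accounts for 4 of the 9 calls and was singled out after its values were seen. In its original sequence the log2 fold change was 0.68 (edgeR adjusted p = 0.348). In the copies it was 2.71 with UGACU as the exchanged motif, 1.97 with GAACC, 2.30 with AAACC and 2.60 with UAACC, all called higher by edgeR. With AGACU it was 0.19 (edgeR adjusted p = 0.879). The counts of the UGACU copy went from 42 and 43 to 278 and 395, and those of the AGACU copy from 28 and 18 to 34 and 29. The difference between copies was not tested.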

How the results depend on the processing

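The 64 UGACH sites called higher became 39 with DESeq2 1.42.0 (all among the 64), 25 with a filter of 1 count and 39 with a filter of 50 counts. Leaving out each library gave 19 to 71, and only 39 of the 64 were tested when a methylated library was left out. For UGACA the 31 calls became 19, 10 and 16 under DESeq2 and the filters of 1 and 50 counts, and 6 to 32 without a library. For UGACC the 16 became 8 with the filter of 1 count and 8 to 23 without a library. For UGACU the 17 became 9, 7 and 11, then 11 against sequence totals, and 5 to 19 without a library. Sites called lower numbered 2 with oligonucleotides not summed and 1 to 3 without a library. The median of 0.67 was 0.60 with the filter of 50 counts, 0.61 with oligonucleotides not summed and 0.46 to 0.73 without a library. Contexts called against pooled UGACH went from 11 to between 7 and 9 without a library, and the ratio of 1.498 to between 1.47 and 1.53, or 1.34 as a share of adenosine counts.

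Same-numbered replicates did not deviate together (r = -0.08), so replicate numbers were not taken to pair the libraries. With the replicate block 66 UGACH sites were higher and 1 was lower, 63 of them shared with the 64, and 10 contexts were called against pooled UGACH. The 3 pooled 5-mers kept direction and call in all alternatives run. UGACA was called against UGACC with the block (0.20). Its difference from UGACU was 0.11 to 0.24 without a library and called without methylated replicate 2. UGACU lay between -0.018 and 0.066 when set against UGACC without a library. For the named sites, 180 alternatives kept direction and call, 11 lost the call, 1 gained it and 4 changed sign, all at sites never called. These were the chromosome 17 site (-0.65 to 0.24 without a library, above 0 without methylated replicate 2) and MIEF2 (-0.0075 with DESeq2, and -0.11 to 0.12 without a library, below 0 without unmethylated replicate 1 or methylated replicate 2). The tally for named sites leaves out alternatives in which a site was not tested. The POLR1D, WDR27, ERCC3, ZNF276 and POLD1 sites fell below the filter when either methylated library was left out. Their calls were therefore not tested in those settings. Depth limits the site tests, since 1116 of 1505 sites were below the filter.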

Other observations

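A few UGACH bystanders were at the same time the selected adenosine of another RNA, so that 1 genomic adenosine was read in 2 sequence surroundings. Of these, 11 had been selected for the m6A class, and 3 of their 6 tested bystander copies were called higher by edgeR. Among all tested bystander adenosines 6.22% were higher. The adenosines in RHOB and MSH6 each occurred more than once among the 11, and the RHOB one also among the 6. The RWDD2A copy and the RHOB copy with 5 and 0 counts before methylation passed the filter through the methylated libraries alone. The 3 of 6 is therefore no support for a difference between the classes. Another 14 had been selected for the unmodified class, and 0 of their 4 tested copies were called higher by edgeR. The closest of those was in SF3B3, with a log2 fold change of 2.59 (edgeR adjusted p = 0.0532), and the difference between the classes was not tested.

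The copies did not carry like depth. The RWDD2A site had 4 and 0 counts before and 24 and 36 after methylation as a bystander (log2 fold change 3.56, edgeR adjusted p = 0.00361), and no count in any library where it was the selected adenosine. The site in SGSH, a lysosomal sulfatase gene, had 38 or more counts in each library as a bystander (log2 fold change 1.30, edgeR adjusted p = 0.0298) and between 0 and 7 where selected. The site in RHOB, a small GTPase gene, was read in 3 sequences and had log2 fold changes of 2.68, 1.12 and, where selected, 1.79 (edgeR adjusted p = 0.0429, 0.0585 and 0.0532).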
